A study of Mus musculus with 12 samples.

Results

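*Nxpe4*, *Ppcdc*, *Abcg4* and *Il18* are 4 genes that lie on chromosome 9, the chromosome that carries *Sorl1*, the gene encoding LR11. They were picked from the same arrays for a difference between *Lr11*-/- and wild-type (WT) mice in one or both fat depots and for their place on that chromosome, and they are 4 of 20660 genes that could be named on the array, read by 5 of 55681 probes. The samples were subcutaneous white adipose tissue (scWAT) and brown adipose tissue (BAT) of male C57Bl6/J mice aged 12 weeks on a high-fat diet (HFD). Every group was on HFD, and the labels give both 4 weeks of it and feeding since weaning, so its length is open. Each genotype was measured in each depot, which gives 4 groups of 3 arrays. *Lr11*-/- mice carried the targeted allele in every tissue and WT mice were their littermates. The strain of the cells in which *Lr11* was targeted, the number of later crosses to C57Bl6/J and any pooling of animals are not given in the sources used here. P values therefore measure the spread between these samples.

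The protein products belong to unrelated pathways. *Ppcdc* encodes the decarboxylase that turns phosphopantothenoylcysteine into phosphopantetheine, a step on the way from pantothenate (vitamin B5) to coenzyme A, the carrier of acyl groups in fatty acid synthesis and oxidation. *Abcg4* encodes a half-transporter of the ABCG family that, like its relative *Abcg1*, can move sterols out of cells to high-density lipoprotein. *Il18* encodes interleukin-18, a cytokine that is made as an inactive precursor, cut by caspase-1 and bound by the receptor chains encoded by *Il18r1* and *Il18rap*. *Nxpe4* belongs to the neurexophilin and PC-esterase domain family, whose functions are little known. Neighbouring genes on a chromosome are usually inherited together, and the place of each gene is therefore given as its distance from *Sorl1* in the order of protein-coding genes. In that order *Abcg4* was gene 21 from *Sorl1*, *Nxpe4* gene 79, *Il18* gene 101 and *Ppcdc* gene 185, all on the same side, among 1201 protein-coding genes of the chromosome.

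RefSeq gives at least 1 start site on assembly GRCm38.p6 for *Sorl1* and for 3 of the 4 genes, and *Abcg4* is not in the table of promoters. The 300 bases around each, from 250 before to 50 after the start, are shown as a description. *Sorl1* is the targeted gene, so its lower level in *Lr11*-/- is not read as a trait of its promoter. Capitals mark 1 of 4 motifs, which were searched on both strands. They are TATAAA, known as the TATA box, then CCAAT, named by its letters, then GGGCGG, known as the GC box, and last CACGTG, the palindromic E-box. None of them overlaps another in these windows.
*Sorl1*, chr9:42124248-42124547, minus strand: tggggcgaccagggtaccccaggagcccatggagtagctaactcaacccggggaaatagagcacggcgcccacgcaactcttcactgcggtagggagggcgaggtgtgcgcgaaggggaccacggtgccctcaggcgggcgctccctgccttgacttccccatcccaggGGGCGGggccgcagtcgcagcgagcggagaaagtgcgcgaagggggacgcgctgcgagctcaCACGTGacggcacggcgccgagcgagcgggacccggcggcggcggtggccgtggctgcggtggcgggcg
*Nxpe4*, chr9:48361791-48362090, plus strand: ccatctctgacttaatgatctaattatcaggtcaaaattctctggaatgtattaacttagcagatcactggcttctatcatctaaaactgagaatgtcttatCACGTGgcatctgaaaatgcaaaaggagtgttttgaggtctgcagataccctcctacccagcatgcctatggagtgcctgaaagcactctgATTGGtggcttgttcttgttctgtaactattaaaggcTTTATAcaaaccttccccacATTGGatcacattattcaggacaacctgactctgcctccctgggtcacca
*Ppcdc*, chr9:57439687-57439986, minus strand: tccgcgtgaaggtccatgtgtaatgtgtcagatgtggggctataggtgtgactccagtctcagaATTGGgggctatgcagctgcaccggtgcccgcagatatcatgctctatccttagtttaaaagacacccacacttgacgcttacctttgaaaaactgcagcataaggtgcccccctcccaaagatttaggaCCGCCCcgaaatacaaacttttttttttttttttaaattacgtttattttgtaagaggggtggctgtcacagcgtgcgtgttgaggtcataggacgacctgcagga
*Il18*, chr9:50554450-50554749, plus strand: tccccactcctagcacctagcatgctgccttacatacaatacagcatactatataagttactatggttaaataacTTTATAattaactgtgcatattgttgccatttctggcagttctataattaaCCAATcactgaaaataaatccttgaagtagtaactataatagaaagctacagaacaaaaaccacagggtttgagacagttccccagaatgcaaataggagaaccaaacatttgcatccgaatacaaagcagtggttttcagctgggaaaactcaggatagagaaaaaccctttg

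The printed window of *Sorl1* was rich in G and C (72.3%) with 37 CG pairs. RefSeq lists another *Sorl1* start, at chr9:42077164-42077463 on the minus strand, whose window had 44% GC, 9 CG pairs and none of the motifs. Those of *Nxpe4* (42.3%, 1 CG pair) and *Il18* (36.7%, 1 CG pair) were poor in both, and that of *Ppcdc* (47.3%) held 11 CG pairs. Over 32851 promoters of this length the median GC content was 52.7% and the median number of CG pairs 7. An E-box, which 7.15% of all promoters hold, was found in *Sorl1* at position -19 and in *Nxpe4* at position -148, counted from the start site to the leftmost base of the motif. Of the other matches, a GC box in *Sorl1* (-81) and a CCAAT box in *Il18* (-124) lay on the strand of the gene. On the opposite strand were a GC box in *Ppcdc* (-56) and a TATA box in *Nxpe4* (-20) and *Il18* (-175). A CCAAT box in *Nxpe4* (-57 and 1) and *Ppcdc* (-186) was on the opposite strand as well. A CCAAT box is present in 37.4% of all promoters, a GC box in 35.7% and a TATA box in 13.6%. These matches describe letters only, and the arrays carry no measurement of what binds there.

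Levels were measured as the intensity of each probe on one-colour Agilent arrays. They are given as log2 intensity minus the array's 75th percentile, so that 0 is as bright as that percentile and a difference of 1 is 2-fold. The deposited table of the series and the scanner files held the same intensities (largest difference 0). A probe was called well above background by the scanner software, and between 32377 and 37002 spots per array passed that call. Each group had 1 array in a first array series (replicate 1) and 2 in a second (replicates 2 and 3). In the first series the scWAT and BAT arrays were on separate slides, and all arrays of the second shared 1 slide. The 5 adipocyte markers were well above background on every array, as were the 5 brown adipocyte markers in BAT. The list mean of the adipocyte markers was lowest on WT scWAT 2, 3.21 against at least 5.47 elsewhere. That array also had the highest mean of the macrophage markers (3.48) and the lowest of the brown adipocyte markers (-3.02). The skeletal muscle markers split the arrays, with a list mean between 5.57 and 8.72 on 5 arrays (WT scWAT 3, *Lr11*-/- scWAT 1, WT BAT 1 and 3, *Lr11*-/- BAT 1) and between -4.69 and -3.68 on the other 7. *Lr11*-/- scWAT 1 also had the highest mean of the epithelial markers, 1.28 against at most -2.45 elsewhere. Results are therefore also given for the 7 arrays with low muscle markers, a choice made after the data were seen. Only 1 of these is WT BAT, and it is assumed to vary like the other groups. In whole tissue, fewer cells of a type and less RNA per cell cannot be told apart, and a lower transcript level and weaker binding of a probe to the transcript also cannot be told apart, as the files used here hold no probe sequences.

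*Sorl1*, the targeted gene, was checked first. In scWAT its log2 level was 0.91, 0.96 and 1.15 on the WT arrays and -3.57, -3.56 and -2.87 on the *Lr11*-/- arrays. BAT gave 0.71, 1.21 and 0.11 for WT against -3.93, -2.45 and -2.48 for *Lr11*-/-. Every *Lr11*-/- array lay below every WT array, and the probe was still well above background on all of them. The difference was -4.34 (SE 0.42) in scWAT and -3.63 (SE 0.42) in BAT on the log2 scale. The limma adjusted p was 0.0063 in scWAT and 0.032 in BAT, and when single arrays were removed the BAT value exceeded 0.05 in 11 of the 12 removals, with a highest value of 0.23.

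**Figure D1:**
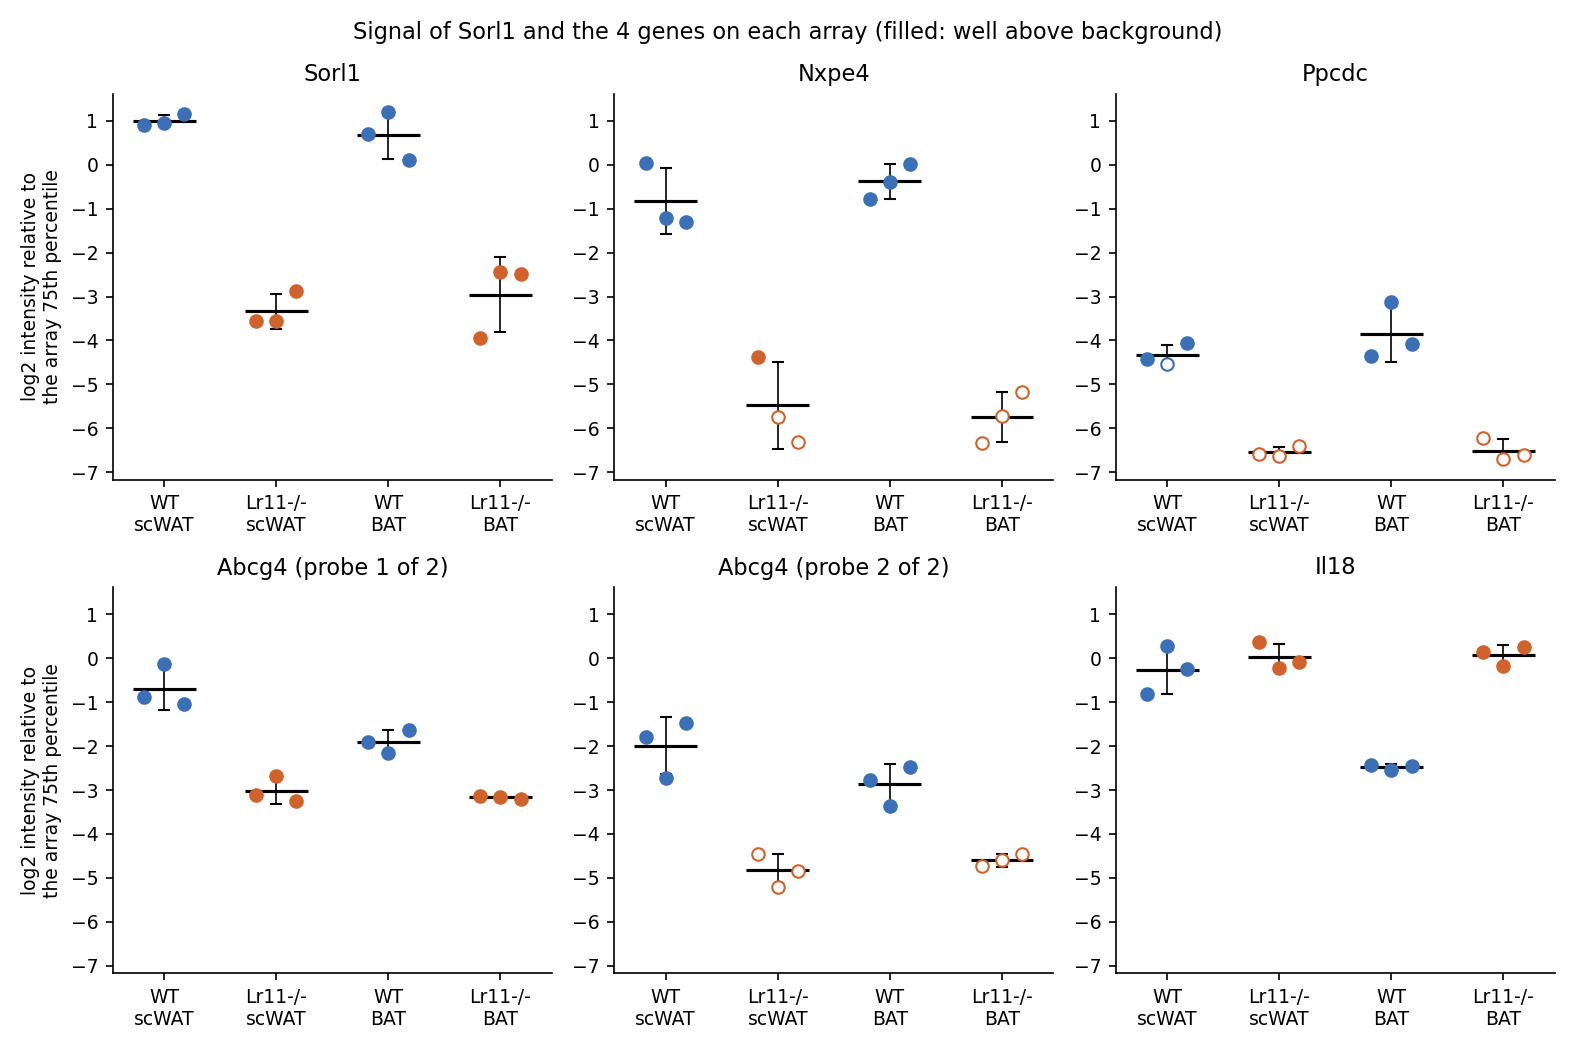
Log2 intensity relative to the array's 75th percentile (vertical axis) for *Sorl1* and each probe of the 4 genes in the 4 groups (horizontal axis), with points for arrays, a line for the mean, bars for the SD (n = 3) and open points for signals not well above background. *Nxpe4*, *Ppcdc* and both *Abcg4* probes were lower on every *Lr11*-/- array than on every WT array of the same depot, and *Il18* stood apart only in WT BAT, near -2.47.

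Since the 4 genes were chosen by their genotype difference, its size is given without a test. *Nxpe4*, *Ppcdc* and *Abcg4* were lower in *Lr11*-/- without overlap in both depots, and *Il18* was higher without overlap in BAT alone. Among the 14709 named genes tested, 9.53% were lower without overlap in scWAT, 4.53% were lower without overlap in BAT and 8.44% were higher without overlap in BAT. By over 1 on the log2 scale, 0.17% were lower without overlap in both depots and 0.7% were higher without overlap in BAT alone. Nothing is read from the members' counts against these shares. The plot of signals by array shows the levels of each gene in the 4 groups.

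*Nxpe4* showed the widest separation. In scWAT its log2 level was 0.04, -1.22 and -1.30 on the WT arrays and -4.38, -5.73 and -6.32 on the *Lr11*-/- arrays. BAT gave -0.77, -0.38 and 0.03 for WT against -6.33, -5.72 and -5.18 for *Lr11*-/-. The WT arrays of both depots overlapped each other, as did the *Lr11*-/- arrays, and between the genotypes lay a gap of 3.08 in scWAT and 4.41 in BAT between the nearest arrays. All 6 WT signals of the probe passed the background call but only 1 of the 6 *Lr11*-/- signals, that of *Lr11*-/- scWAT 1, which is one of the arrays with high muscle markers and the one with high epithelial markers. Whether tissue mixture played a part in that array's value was not tested. The fitted log2 difference was -4.65 (SE 0.53) in scWAT and -5.37 (SE 0.53) in BAT. Because most *Lr11*-/- signals were dim, these values are not exact, and a more cautious fold is given as well. For it, each dim *Lr11*-/- value was raised to the lowest signal that still passed the background call on its array. *Nxpe4* was then 12.5-fold lower in scWAT and 17.9-fold lower in BAT. This fold allows for dim signal only. It is no strict lower bound, as a signal above that level can still fail the call. The difference was similar within the first array series (-4.42 in scWAT, -5.56 in BAT) and within the second (-4.77 and -5.27), and on the 7 arrays with low muscle markers it was -5.43 and -5.07. Another estimate of the background, normexp with an offset of 50 intensity units added to every spot before log2, gave -2.12 and -2.50. Such an offset by itself draws dim values closer together.

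*Ppcdc* was dim throughout. Its log2 level in WT scWAT was -4.41, -4.54 and -4.06, against -6.60, -6.62 and -6.41 in *Lr11*-/- scWAT. WT BAT gave -4.36, -3.12 and -4.07, against -6.22, -6.71 and -6.61 in *Lr11*-/- BAT. The genotypes were apart in both depots by at least 1.85 between the nearest arrays, and the *Lr11*-/- arrays of both depots lay within the same narrow range. The background call was passed by 5 of the 6 WT signals, all but WT scWAT 2, and by 0 of the 6 *Lr11*-/- signals. Before log2 its intensity was 18.9 to 50.9 units on the WT arrays and 4.11 to 6.13 units on the *Lr11*-/- arrays, where the median local background of a spot was 30 to 60 units over all 12 arrays. The log2 difference was -2.20 (SE 0.31) in scWAT and -2.66 (SE 0.31) in BAT. With dim *Lr11*-/- values raised in the same way, *Ppcdc* was 1.17-fold lower in scWAT and 1.61-fold lower in BAT. The dim signal of WT scWAT 2 was used as measured, so the scWAT fold is not a minimum. With normexp the difference shrank to -0.34 and -0.42. The offset of 50 units used there was far above the *Lr11*-/- intensities and close to the highest WT intensity. The size of the difference thus rested on how dim signal was handled, and the parts of the offset and of the background estimate were not told apart. Within the first array series the difference was -2.18 in scWAT and -1.85 in BAT, and within the second -2.21 and -3.06.

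*Abcg4* was read by a pair of probes. On the brighter one, A_55_P2018002, the log2 level in WT scWAT was -0.89, -0.14 and -1.04, against -3.10, -2.68 and -3.25 in *Lr11*-/- scWAT. WT BAT was at -1.90, -2.15 and -1.64, and *Lr11*-/- BAT was at -3.13, -3.15 and -3.21. All 12 signals were well above background, and the order of the groups was *Lr11*-/- BAT and *Lr11*-/- scWAT, which overlapped, then WT BAT, then WT scWAT, each apart from the next. The log2 difference between the genotypes was -2.32 (SE 0.27) in scWAT, 5.01-fold, and -1.27 (SE 0.27) in BAT, 2.41-fold. The other probe, A_66_P130654, was at -1.79, -2.72 and -1.47 in WT scWAT and at -4.45, -5.20 and -4.84 in *Lr11*-/- scWAT. For WT BAT it gave -2.77, -3.36 and -2.47, and for *Lr11*-/- BAT -4.74, -4.60 and -4.46. Its WT arrays were again above its *Lr11*-/- arrays in each depot, but 0 of the 6 *Lr11*-/- signals were well above background, and its WT depots overlapped. With dim *Lr11*-/- values raised in the same way, *Abcg4* was 5.65-fold lower in scWAT and 2.99-fold lower in BAT on this probe. The dim signals of *Lr11*-/- scWAT 1 and *Lr11*-/- BAT 2 and 3 exceeded the lowest passing signal of their array. They were kept as measured, so these folds are no strict lower bounds. With normexp the brighter probe gave -1.41 in scWAT and -0.55 in BAT.

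*Il18* had a different pattern. Its log2 level in WT BAT was -2.42, -2.54 and -2.45, against 0.14, -0.16 and 0.26 in *Lr11*-/- BAT. WT scWAT was at -0.81, 0.29 and -0.24, and *Lr11*-/- scWAT was at 0.38, -0.22 and -0.09. Only WT BAT stood apart, with an SD of 0.07 over its 3 arrays, while *Lr11*-/- BAT overlapped both scWAT groups. All 12 signals were well above background. In BAT the log2 difference was 2.55 (SE 0.28), 5.87-fold, and it was 2.56 in the first array series, 2.55 in the second, 2.59 on the 7 arrays with low muscle markers and 1.71 with normexp. In scWAT it was 0.28 (SE 0.28) with overlapping genotypes, 1.19 in the first array series and -0.18 in the second. Interleukin-18 is made by macrophages among other cells. The mean of the macrophage markers overlapped between the genotypes in BAT, and the part of macrophages in the *Il18* values was not tested. The mean ranged from -0.77 to -0.09 on the WT BAT arrays and from -0.92 to -0.25 on the *Lr11*-/- BAT arrays, with *Adgre1*, *Csf1r*, *Mrc1*, *Itgax*, *Trem2* and *Cd14* well above background on all of them and *Cd163* on 0 of the WT BAT arrays.

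**Figure D2:**
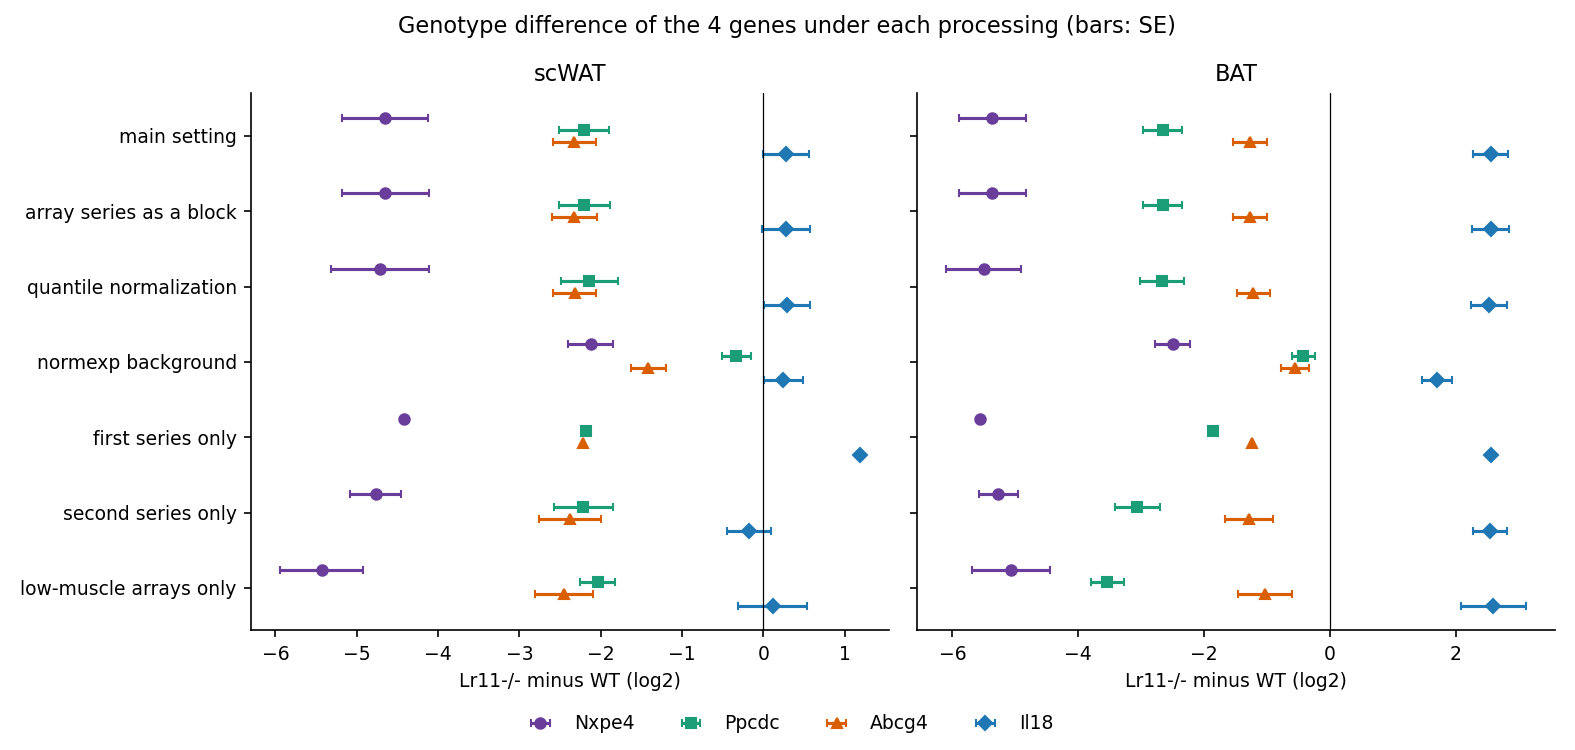
Log2 difference *Lr11*-/- minus WT (horizontal axis) of the 4 genes in scWAT (left) and BAT (right) under 7 ways of processing the arrays (rows), with bars for the SE and no SE for the first array series, which has 1 array per group. The lower *Nxpe4*, *Ppcdc* and *Abcg4* and, in BAT, the higher *Il18* kept their direction in each row, normexp gave these the values nearest to 0, and *Il18* in scWAT lay on both sides of 0.

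The difference between the depots, BAT minus scWAT averaged over the genotypes, was not itself used to choose the genes and was tested. It rests on the same arrays as that choice, so the test is not independent of it. For 2 of the 4 genes it passed the limma threshold, *Abcg4* and *Il18*, both lower in BAT. Over all named genes 25.4% passed, 15.4% higher and 9.99% lower in BAT, so the depots differed at many genes. *Il18* was lower in BAT by 1.08 on the log2 scale (SE 0.20, limma adjusted p = 0.0069, two-sided exact permutation test within genotype p = 0.06, where 400 arrangements allow 0.005). The average hid unequal parts, since BAT minus scWAT was -2.22 in WT without overlap and 0.06 in *Lr11*-/- with overlap. The WT BAT arrays, on which *Il18* was low, enter both this difference and the genotype difference for which it was chosen. As arrays were removed one at a time the averaged difference stayed between -1.22 and -0.94 with an adjusted p from 0.0032 to 0.023. On the 7 arrays with low muscle markers it was -1.04 with an adjusted p of 0.13.

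*Abcg4* was lower in BAT by 0.68 on the brighter probe (SE 0.19, limma adjusted p = 0.028, two-sided exact permutation p = 0.03). BAT minus scWAT was -1.21 in WT without overlap and -0.15 in *Lr11*-/- with overlap. The other probe did not pass the threshold, with a difference of -0.32 (SE 0.25, limma adjusted p = 0.35, exact permutation p = 0.32). The call on the brighter probe ended when any 1 of 6 arrays was left out (*Lr11*-/- BAT 1, 2 or 3, *Lr11*-/- scWAT 2, WT BAT 1 or 2), with a difference between -0.69 and -0.60 and an adjusted p between 0.055 and 0.074. It also ended with no filter on dim probes (adjusted p = 0.054), with normexp (0.088), in the second array series alone (0.11) and on the arrays with low muscle markers (0.12).

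Neither *Nxpe4* nor *Ppcdc* passed the threshold between the depots, a comparison that includes the *Lr11*-/- arrays, on which *Nxpe4* was well above background on 1 of 6 and *Ppcdc* on 0 of 6. It therefore says little about the depots beyond the WT arrays. *Nxpe4* differed by 0.09 (SE 0.37, limma adjusted p = 0.87, exact permutation p = 0.80) and *Ppcdc* by 0.26 (SE 0.22, limma adjusted p = 0.39, exact permutation p = 0.29). Within WT, BAT minus scWAT was 0.45 (SE 0.53) for *Nxpe4* and 0.49 (SE 0.31) for *Ppcdc*, and the depots overlapped for both. In the first array series, with 1 array per group, the *Nxpe4* depot difference was -1.37, and depot and slide cannot be told apart there.

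Genes around *Sorl1* were counted next, leaving out *Sorl1* and the 4 genes, to see how far a genotype difference extended along the chromosome. Of the 54 tested genes up to 50 genes away from *Sorl1*, 2 were apart between the genotypes in the same direction in both depots (3.70%), and of the 92 tested genes at a distance of 51 to 150 genes there were 10 (10.9%, 7 higher and 3 lower in *Lr11*-/-). Farther along the same chromosome there were 24 of 655 (3.66%), and over all named genes the share was 2.14% (1.28% higher and 0.857% lower). The median log2 difference averaged over the depots was -0.03, 0.11 and 0.00 in these zones and 0.05 over all named genes. The zones took in both sides of *Sorl1*. Up to 150 genes away, every gene apart in both depots lay on the side of the 4 genes. None lay on the other side, where far fewer genes were tested, so nothing is read from the difference between the sides. By limma on the averaged genotype difference 0 genes were called in the nearest zone, where 14 had an unadjusted p under 0.05 (6 higher, 8 lower), 2 in the middle zone (*Apoc3* and *Gm5617*) and 1 farther away, against 0.136% of all named genes. These counts moved with single arrays. The 10 genes without overlap became 11 to 16 as each array was left out, and the 2 limma calls in the same zone became 16 without *Lr11*-/- scWAT 1, 11 without WT scWAT 3, 5 without WT scWAT 1, 1 without WT scWAT 2 and 0 without any of the other 8 arrays. In the nearest zone there were 8 limma calls without *Lr11*-/- scWAT 1, 5 without WT scWAT 3 and 1 without WT scWAT 1.

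**Figure D3:**
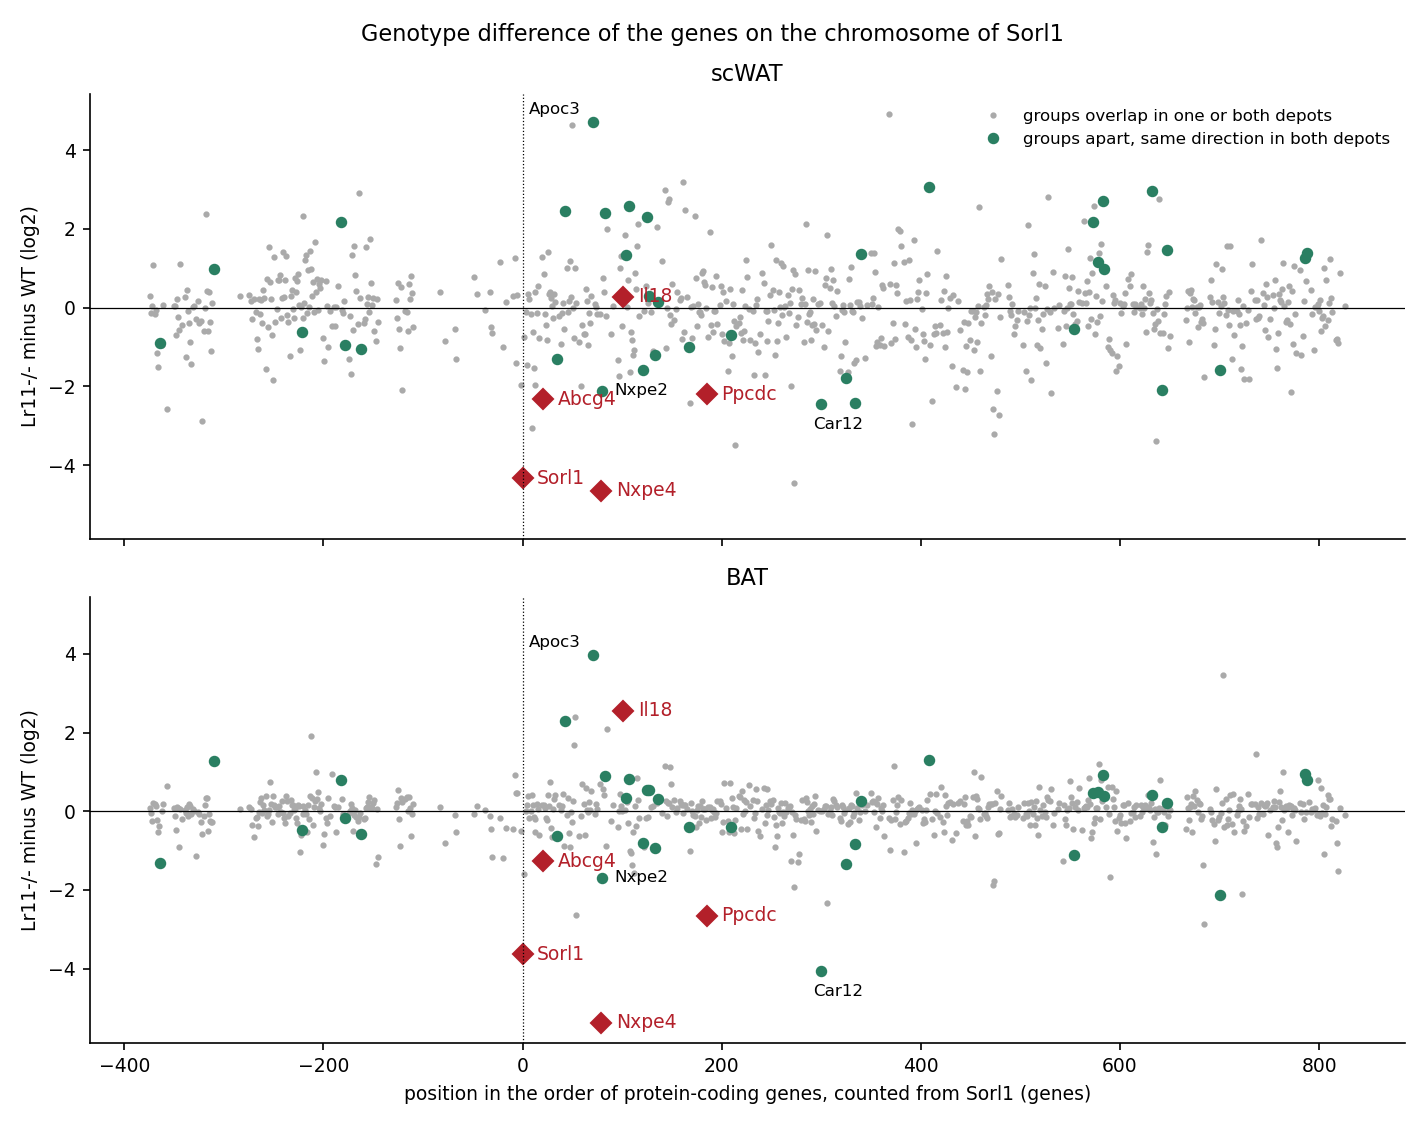
Log2 difference *Lr11*-/- minus WT (vertical axis) of each tested gene of the chromosome in scWAT (top) and BAT (bottom) against its place in the order of protein-coding genes counted from *Sorl1* (horizontal axis). Diamonds mark *Sorl1* and the 4 genes, and larger points mark genes whose genotypes did not overlap in the same direction in both depots. *Nxpe4* at gene 79 was the lowest point in both panels, and 13 of the 135 tested genes between *Sorl1* and *Ppcdc* were apart in both depots.

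Between *Sorl1* and *Ppcdc* 135 genes were tested, of which 13 were apart in the same direction in both depots, 9.63% against 2.14% of all named genes, and 2 were called by limma. This stretch was bounded by *Ppcdc*, itself chosen from these arrays for its genotype difference and place, so nothing is read from its share. Of the genes directly beside the 4, 1 was apart in the same direction in both depots. *Nxpe2*, a family member next to *Nxpe4*, was at -3.82, -3.37 and -3.43 in WT scWAT and at -4.74, -6.70 and -5.51 in *Lr11*-/- scWAT. WT BAT gave -3.94, -3.65 and -2.84 and *Lr11*-/- BAT -6.08, -5.21 and -4.21. It was thus lower on every *Lr11*-/- array of both depots, by 2.11 (SE 0.55) in scWAT and 1.69 (SE 0.55) in BAT on the log2 scale, with a limma adjusted p of 0.10 for the average, and was well above background on 1 of 6 *Lr11*-/- arrays. *Nxpe2* and *Nxpe4* are related in sequence, and how far each probe binds the other's transcript was not tested. *Cadm1*, an adhesion molecule on the other side of *Nxpe4*, differed by -0.16 (SE 0.52) in scWAT and 0.68 (SE 0.52) in BAT.

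The tested genes on either side of *Ppcdc* gave small values. *1700017B05Rik* differed by -0.00 and -0.21 in scWAT and BAT, and *Scamp5*, a secretory carrier membrane protein, by -0.74 and 0.10 (SE 0.44 and 0.52), and neither passed the limma threshold. Beside *Abcg4*, *Nlrx1*, a mitochondrial member of the NOD-like receptor family, differed by 1.28 in scWAT (SE 0.34, limma adjusted p = 0.054) and 0.15 in BAT, and *Hinfp*, a transcription factor of histone genes, by 0.86 (SE 0.29) and 0.15. Both were thus above 0 where *Abcg4* was below. Beside *Il18*, the carotenoid-cleaving enzyme gene *Bco2* differed by -0.46 and 0.01 (SE 0.30), and *Sdhd*, a subunit of respiratory complex II, rose by 1.83 in scWAT (SE 0.47, limma adjusted p = 0.0497) and differed by 0.04 in BAT. Next to *Sorl1* itself, *Ubash3b* differed by -1.98 in scWAT and -0.51 in BAT (SE 0.65), and *Sc5d*, an enzyme of cholesterol synthesis, by -0.74 and -1.60 (SE 0.71), with no limma adjusted p under 0.05 in either depot.

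Leaving out *Sorl1* and the 4 genes, *Apoc3* had the largest averaged difference among the genes within 150 of *Sorl1* that were apart in both depots. *Apoc3*, which encodes an apolipoprotein that slows the clearance of triglyceride-rich lipoproteins, was at -1.57, -4.93 and -0.41 in WT scWAT and at 2.08, 2.43 and 2.69 in *Lr11*-/- scWAT. WT BAT gave -2.22, -1.67 and -1.93 and *Lr11*-/- BAT 1.96, 2.18 and 1.92. Both depots thus showed *Apoc3* higher on every *Lr11*-/- array, by 4.70 and 3.96 (SE 0.86), and its average passed the threshold (limma adjusted p = 0.039). *Apoc3* was well above background on 2 of 3 WT scWAT arrays, so its scWAT difference and its average are not exact. *Gm5617* was higher by 2.40 and 0.91 (SE 0.36, limma adjusted p = 0.044 for the average). *Ttc36* was also higher in both depots, by 2.46 and 2.30 (SE 0.54, limma adjusted p = 0.058 for the average), but was well above background on only 1 of 3 WT arrays in each depot, so that these values are not exact. Mitochondrial proteins are encoded by *Dlat*, a subunit of the pyruvate dehydrogenase complex, *Fdx1*, a ferredoxin, and *Timm8b*, an import chaperone. Their genotype differences were larger in scWAT (2.57, 2.30 and 1.33) than in BAT (0.82, 0.54 and 0.33). Limma did not call the genotype difference as unequal between the depots for any of them (interaction adjusted p of at least 0.40). The mean of the brown adipocyte markers ran from -3.02 to 3.07 in WT scWAT and from 3.05 to 6.11 in *Lr11*-/- scWAT, with 2 of the 5 markers well above background on all WT scWAT arrays, and the part of this in the scWAT values was not tested.

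Besides *Nxpe2*, the lower genes of this group were *Pou2af1*, a coactivator of B lymphocytes (-1.60 in scWAT, -0.80 in BAT, SE 0.30), *Atm*, a kinase of the DNA damage response (-1.21 and -0.94, SE 0.25), and *Bcl9l*, a partner of beta-catenin (-1.30 and -0.63, SE 0.27). Their limma adjusted p for the average lay between 0.060 and 0.10. The B lymphocyte markers moved in the same direction as *Pou2af1*, with a list mean of -2.83 to -2.16 in WT scWAT against -4.15 to -3.87 in *Lr11*-/- scWAT, and of -3.21 to -2.96 in WT BAT against -4.51 to -3.48 in *Lr11*-/- BAT. *Cd79a*, which defines that lineage, was well above background on 0 arrays of 3 of the 4 groups, and the part of B lymphocytes in the *Pou2af1* values was not tested.

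The genes most like each of the 4 over the 12 arrays were found from the root mean square difference of centred log2 levels over 14702 genes. This likeness rests on the same genotype differences that chose the 4, and it is a description. *Sorl1* was the nearest to *Nxpe4* (0.97), followed by *Egr1* (1.16) on chromosome 18 and *Cdsn* (1.30) on chromosome 17. *Sorl1* in turn was nearest to *Nxpe4* (0.97), *Ppcdc* (0.98) and *Car12* (1.02), all on chromosome 9, the last at gene 300 in the order. Among the genes closest to *Ppcdc* were *Fcmr* (0.62), the receptor for immunoglobulin M on chromosome 1, and *Ccl17* (0.74), a chemokine gene on chromosome 8. For *Abcg4* they were *Bub1b* (0.39) and *Cercam* (0.46) on chromosome 2 and *Tert* (0.48) on chromosome 13. *Itga9* (0.56), an integrin gene at gene 737 of chromosome 9, was nearest to *Il18*, ahead of *Slc10a6* (0.71) on chromosome 5 and *Osbpl3* (0.72) on chromosome 6. *Il18* itself was far from *Nxpe4* (3.41) and from *Ppcdc* (2.19).

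Other genes of the 4 pathways were then counted. In scWAT 6.05% of all named genes differed between the genotypes by limma, and in BAT 0.0272%. Of the 17 tested coenzyme A genes besides *Ppcdc*, 2 of them rose in *Lr11*-/- scWAT and 0 fell. They were *Pank1*, the kinase of the first step (4.81, SE 1.04, limma adjusted p = 0.040), and *Nudt8*, a mitochondrial hydrolase of coenzyme A (1.63, SE 0.35, limma adjusted p = 0.039). *Pank1* was at -2.92, -5.73 and -1.10 in WT scWAT and at -0.41, 2.46 and 2.62 in *Lr11*-/- scWAT, well above background on 2 and 3 arrays. *Nudt8* was at 0.85, 0.35 and 1.12 in WT scWAT and at 1.52, 2.70 and 3.00 in *Lr11*-/- scWAT. Neither gene's genotypes overlapped there, and the highest values came from the second array series. The median difference of the list was 1.09 in scWAT, with 16 of 17 above 0, against 0.05 over all genes, and 0.08 in BAT against 0.05. In BAT limma called 0 of the 17, with 0 at an unadjusted p under 0.05. The scWAT count became 8 without *Lr11*-/- scWAT 1 or WT scWAT 1, 5 without WT scWAT 3 and 0 without any of the other 9 arrays. The scWAT direction of this list was thus opposite to that of *Ppcdc*, and it moved with the brown adipocyte markers given above, whose part was not tested.

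Between the depots 6 of the 17 coenzyme A genes changed, 5 higher and 1 lower in BAT, where 15.4% of all named genes were higher and 9.99% lower. *Pank1* (4.66), *Fasn*, the fatty acid synthase that carries a phosphopantetheine arm (3.12), *Slc25a42*, the mitochondrial coenzyme A carrier (3.08), and *Nudt8* (1.28) were higher in BAT, as was *Slc5a6*, the pantothenate transporter (1.02), and *Dcakd* was lower (-0.73). The count was 3 without any 1 of the 6 BAT arrays and 1 on the 7 arrays with low muscle markers. *Ppcdc* (0.26) did not pass the threshold in the same comparison.

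Around *Abcg4*, 0 of 16 tested sterol efflux and ABC transporter genes were called between the genotypes in either depot by limma, with 5 at an unadjusted p under 0.05 in scWAT (3 higher, 2 lower) and 0 in BAT. The median difference was 0.04 in scWAT and -0.03 in BAT. Between the depots 9 changed, 3 higher and 6 lower in BAT (all named genes 15.4% and 9.99%), with a median of -0.12 against 0.06 over all genes. *Nceh1* (-2.19) and *Soat1* (-1.99), which remove and add the acyl chain of cholesteryl esters, *Abcg1* (-1.39) and *Mylip* (-0.89), a ligase that marks lipoprotein receptors for degradation, were lower in BAT. *Cyp27a1*, the sterol 27-hydroxylase, was higher (1.31). *Soat1* was well above background on 3 of 3 WT scWAT arrays, 1 of 3 *Lr11*-/- scWAT arrays and 0 arrays of either BAT group. Its value is therefore not exact. *Abcg1* was at 1.98, 3.82 and 2.31 in WT scWAT, at 2.04, 1.72 and 1.85 in *Lr11*-/- scWAT, at 0.80, 1.43 and 1.12 in WT BAT and at 0.37, 0.78 and 0.90 in *Lr11*-/- BAT. Every scWAT array of *Abcg1* was thus above every BAT array. The macrophage markers were also higher in scWAT, with a list mean of 0.25 to 3.48 on the scWAT arrays against -0.92 to -0.09 on the BAT arrays. WT scWAT 2, which had the highest mean of these markers, also had the highest level of *Abcg1*, of *Nceh1* (4.29) and of *Soat1* (0.46). The part of macrophages in these differences was not tested. *Abcg4* was lower in BAT in the same comparison, by the brighter probe. The count of 9 fell to 3 without *Lr11*-/- BAT 1, to 4 or 5 without any 1 of the other 5 BAT arrays or of *Lr11*-/- scWAT 1 and 2, and to 0 on the arrays with low muscle markers.

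For *Il18*, 0 of the 16 tested genes of its pathway were called between the genotypes in either depot by limma, with 3 at an unadjusted p under 0.05 in scWAT (1 higher, 2 lower) and 0 in BAT, the depot in which *Il18* was apart. The median difference was -0.60 in scWAT, with 4 of 16 above 0, and 0.11 in BAT. Between the depots 7 changed, 2 higher and 5 lower in BAT (all named genes 15.4% and 9.99%). *Il18r1*, a chain of the receptor, was lower by 2.19, with -3.41, -2.54 and -2.71 in WT scWAT, -2.81, -2.41 and -3.30 in *Lr11*-/- scWAT, -4.95, -6.28 and -4.40 in WT BAT and -5.43, -4.53 and -4.73 in *Lr11*-/- BAT. It was well above background on all 6 scWAT arrays and on 0 BAT arrays. *Casp4* (-2.17) and *Casp1* (-2.04), the caspases that act on inflammasome signals, *Nlrc4* (-1.36), an inflammasome sensor, and *Gsdmd* (-0.88), the pore protein gasdermin D, were also lower. *Irak1* and *Traf6*, which carry the receptor's signal, were higher. *Nlrc4* was well above background on 1 of 3 WT BAT arrays and 0 of 3 *Lr11*-/- BAT arrays, so that its value is not exact. The macrophage markers given above were higher in scWAT as well, and their part in these differences was not tested. The count was 3 without WT BAT 2, 4 without *Lr11*-/- BAT 1 or 3, *Lr11*-/- scWAT 1 or 2 or WT BAT 1, and 2 on the arrays with low muscle markers.

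**Figure D4:**
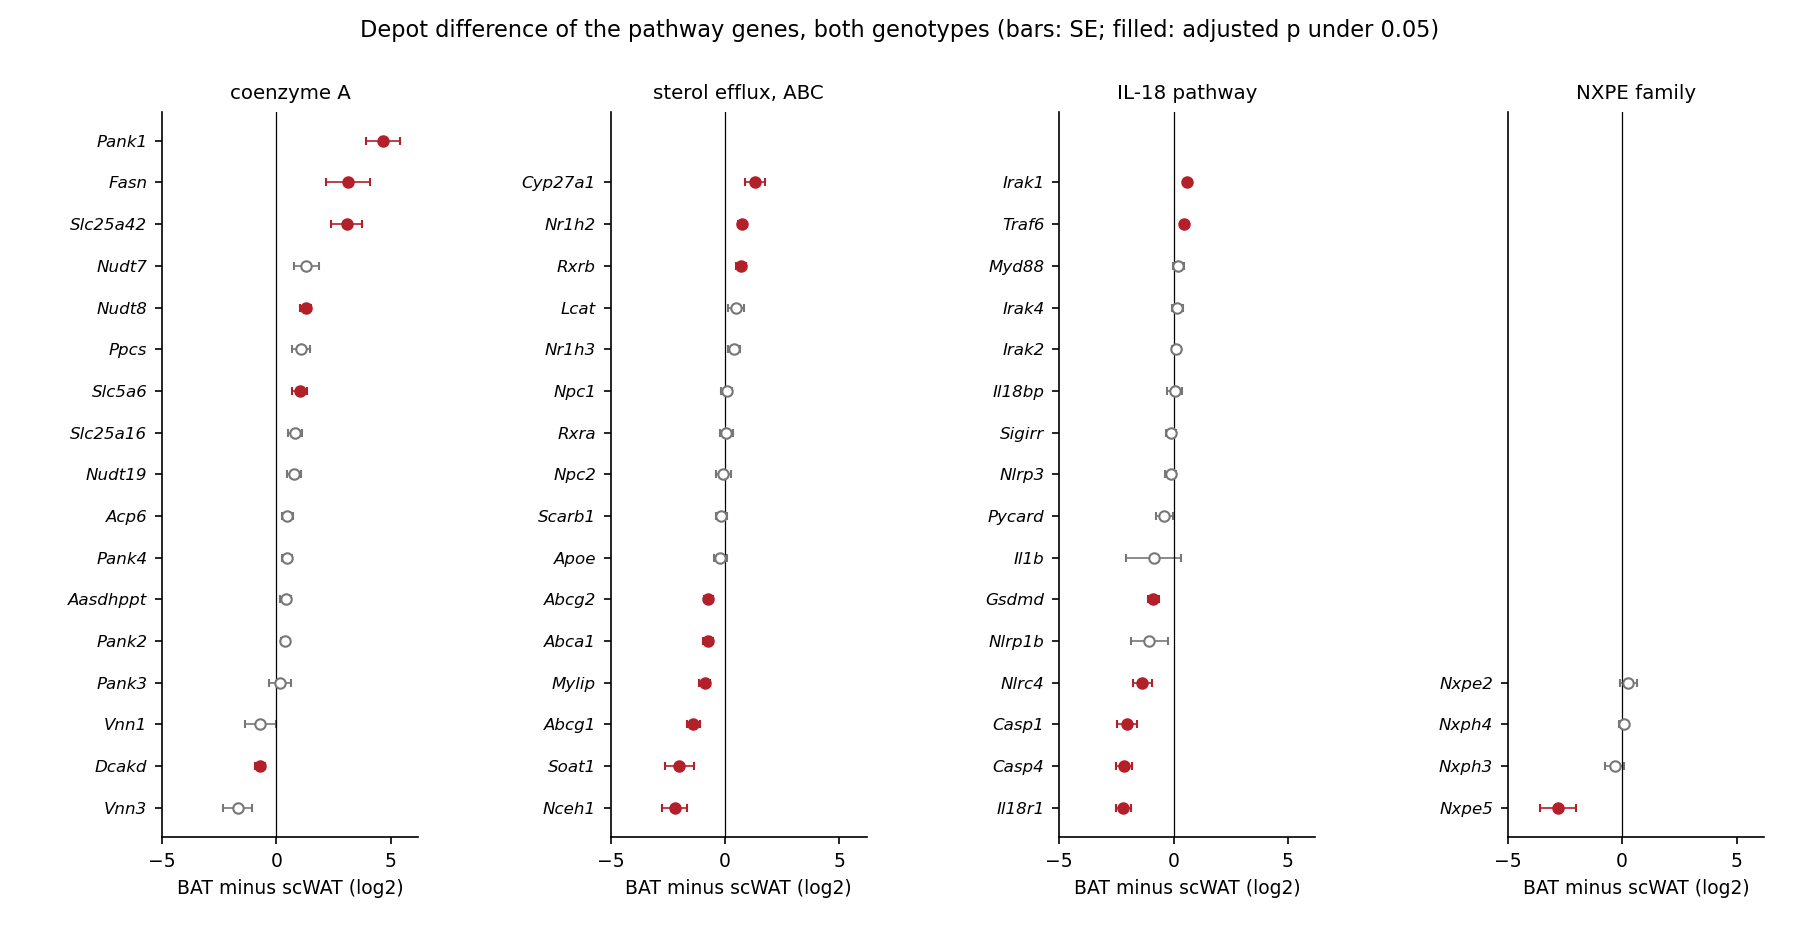
Log2 difference BAT minus scWAT averaged over the genotypes (horizontal axis) of each tested gene of the 4 pathway lists (rows), with bars for the SE and filled points for a limma adjusted p under 0.05. The coenzyme A genes lay mostly above 0, with *Pank1* highest at 4.66, and *Il18r1*, *Casp4* and *Casp1* were the lowest of the IL-18 list.

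Of the relatives of *Nxpe4*, 4 of 8 were tested and 0 were called between the genotypes by limma, with 2 at an unadjusted p under 0.05 in scWAT and 1 in BAT, all lower. These were *Nxpe2*, the neighbour of *Nxpe4* described above, in both depots and *Nxpe5* in scWAT. *Nxpe5* was lower in BAT than in scWAT (-2.79, SE 0.78, limma adjusted p = 0.028). Its levels were -0.99, 1.70 and -2.66 in WT scWAT, -2.04, -3.76 and -4.25 in *Lr11*-/- scWAT, -5.97, -3.20 and -4.17 in WT BAT and -5.68, -3.78 and -5.98 in *Lr11*-/- BAT, with overlap between the depots. That call ended without *Lr11*-/- BAT 1 or 3, *Lr11*-/- scWAT 1 or WT BAT 1. In the same order of groups *Nxpe5* was well above background on 3, 2, 2 and 1 arrays, so that its value is not exact.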

How the data were processed

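RNA of 12 scWAT and BAT samples was hybridised to Agilent mouse arrays with 1 colour (cyanine-3). Spot intensity values were deposited as they came from Agilent Feature Extraction 10.10, which had subtracted the background and removed spatial trends, and the table of the whole series held the same values. Groups were taken from the source labels.

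Here outlier spots (128 to 181 per array) were left out, log2 intensities were averaged per probe and the 75th percentile of each array (374 to 632) was subtracted. A probe was tested if any group had it well above background on each of its 3 arrays, which was so for 32118. Of 28685 probes with a RefSeq accession 27235 were named from a RefSeq table of assembly GRCm38.p6. The array design used another assembly, so that table gave names and gene order only. A gene was read from its brightest tested probe, which left 14709 genes. All arrays entered 1 limma fit (3.58.1, R 4.3.3) with 4 group means, adjusted by the Benjamini-Hochberg method over all tested probes with a threshold of 0.05. Genotype differences of the 4 genes got no test. Tables and figures were made in Python 3.11.15 with pandas 2.3.3, numpy 2.4.6 and matplotlib 3.10.9. Precision is limited by the number of arrays and by dim signal.

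The 4 genes, the pathway and marker lists and the tests were chosen with earlier results of these data known. Named genes are the 4 genes, *Sorl1*, pathway genes past the threshold (at most 5 per list and comparison, except that *Dcakd* and the low *Irak1* and *Traf6* complete a count), the nearest tested gene on either side of each, the 10 genes within 150 of *Sorl1* with the largest difference among those without overlap in both depots, and the 3 genes most like each. *Car12* is also named by its place. One gene that these rules name is not reported here. Alternatives were quantile normalization, normexp, no filter or a filter on all 12 arrays, array series or slide as a block, each series alone, all probes of a gene, each array left out and, chosen after seeing the data, the 7 arrays with low muscle markers.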

Additional observations from a re-analysis of the deposited data

How the results depend on the processing

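No paired analysis was possible because the labels carry no replicate numbers. The genotype differences of *Nxpe4*, *Ppcdc*, *Abcg4* and, in BAT, *Il18* kept their direction under every alternative run, and normexp moved them most, to -2.12 and -2.50 (*Nxpe4* in scWAT and BAT), -0.34 and -0.42 (*Ppcdc*), -1.41 and -0.55 (*Abcg4*) and 1.71 (*Il18* in BAT). *Nxpe4* and *Ppcdc* had no value under the filter on all 12 arrays, which dropped their dim probes. *Il18* in scWAT was 1.19 in the first series and -0.18 in the second, *Abcg4* in BAT -1.50 over both probes and -1.03 on the 7 low-muscle arrays, and *Ppcdc* in BAT -1.85 in the first series and -3.54 on the low-muscle arrays. As arrays were removed one at a time the ranges in scWAT and BAT were -5.20 to -4.22 and -5.65 to -5.07 (*Nxpe4*), -2.30 to -2.06 and -2.92 to -2.29 (*Ppcdc*), -2.50 to -2.05 and -1.39 to -1.14 (*Abcg4*), -0.00 to 0.55 and 2.46 to 2.68 (*Il18*), and -4.57 to -4.22 and -3.91 to -3.14 (*Sorl1*). *Sorl1* in BAT had a limma adjusted p over 0.05 with the series as a block (-3.63, adjusted p = 0.062), no filter (-3.63, adjusted p = 0.078), normexp (-2.45, adjusted p = 0.057), the second series (-3.12, adjusted p = 0.33) and the low-muscle arrays (-3.67, adjusted p = 0.90), and was -4.65 in the first series. By limma adjusted p the depot call of *Abcg4* was lost with no filter (-0.68, adjusted p = 0.054), normexp (-0.40, adjusted p = 0.088), the second series (-0.76, adjusted p = 0.11) and the low-muscle arrays (-0.92, adjusted p = 0.12), and ranged from -0.77 to -0.54 with arrays left out. That of *Il18* was lost on the low-muscle arrays (-1.04, limma adjusted p = 0.13) and ranged from -1.22 to -0.94. The depot difference of *Nxpe4* was -1.37 in the first series and -0.11 to 0.37 with arrays left out, and that of *Ppcdc* was 0.08 to 0.39. The cause of these changes was not tested.

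Counts of calls moved as well. For the depot difference of the lists, no filter gave 4 (IL-18), 0 (NXPE), 3 (coenzyme A) and 5 (sterol), the second series 2 (IL-18), 0 (NXPE) and 3 (sterol), the low-muscle arrays 2 (IL-18), 0 (NXPE), 1 (coenzyme A) and 0 (sterol), and NXPE also had 0 with the filter on all arrays or normexp. With arrays left out they ran from 3 to 7 (IL-18), 0 to 1 (NXPE), 3 to 9 (coenzyme A) and 3 to 9 (sterol). For the genotype in scWAT, coenzyme A calls were 1 with the filter on all arrays, 0 with no filter, 10 in the second series, 5 on the low-muscle arrays and 0 to 8 with arrays left out. NXPE calls there were 1 in the second series, with the slide as a block and on the low-muscle arrays, sterol calls 2 in the second series and IL-18 calls 1 on the low-muscle arrays, with 0 to 1, 0 to 2 and 0 to 2 as arrays were left out. In BAT every alternative gave 0 for all 4 lists. Along the chromosome, limma calls 51 to 150 genes from *Sorl1* were 0 with the series as a block, the filter on all arrays, no filter or the low-muscle arrays, 1 with normexp, 13 in the second series and 0 to 16 with arrays left out. Up to 50 genes away they were 1 with quantile normalization, 4 in the second series and 0 to 8 with arrays left out, and farther away 63 in the second series, 0 on the low-muscle arrays and 0 to 86 with arrays left out. Genes without overlap, from nearest to farthest zone, were 8, 25 and 98 in the second series and 15, 33 and 139 on the low-muscle arrays, 1 in the nearest zone with the filter on all arrays, and 2 to 5, 11 to 16 and 25 to 46 with arrays left out. With fewer arrays a group is more often free of overlap by construction.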

Other observations

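Genes of chromosome 9 were also counted among all genes that followed the genotype in both depots, by a rule chosen after the data were seen, with *Sorl1* and the 4 genes left out. Of 21 genes that were lower by over 1 on the log2 scale without overlap in both depots, 4 lay on chromosome 9 (19.0%), which holds 823 of the 14704 tested genes (5.60%). Among them were *Nxpe2*, the carbonic anhydrase gene *Car12* and the hepatic lipase gene *Lipc*. Of the 21 that were higher by over 1 in the same way, 4 lay there as well (*Apoc3*, *Ttc36*, the branched-chain keto acid dehydrogenase gene *Bckdhb* and *2900052N01Rik*), and of the 15 called by limma on the average 3 did, *Apoc3* and *Gm5617* among them. No test was made of these shares. *Car12* was at -1.44, -2.38 and -1.64 in WT scWAT and at -5.28, -3.66 and -3.87 in *Lr11*-/- scWAT, and at -0.73, -0.05 and -1.98 in WT BAT and at -5.73, -3.11 and -6.13 in *Lr11*-/- BAT. *Car12* lay 300 genes from *Sorl1*, beyond all 4 of the genes described above. It was well above background on 2 of 3 *Lr11*-/- scWAT arrays and 1 of 3 *Lr11*-/- BAT arrays. *Lipc* was so on 1 of 3 *Lr11*-/- scWAT, 1 of 3 WT BAT and 0 of 3 *Lr11*-/- BAT arrays. The differences of both genes are therefore not exact.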
